A study of Mus musculus with 4 samples.

Results

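The heat shock proteins and chaperones described here are 78 of the 12393 genes that the arrays measured under a single gene symbol. They were chosen by name, first every gene whose symbol begins with Hspa, Hspb, Hspd, Hspe, Hsph, Hsp90 or Dnaj. The rule also took the subunits of the cytosolic chaperonin (Cct genes and Tcp1), the numbered Bag genes, St13 and the heat shock factors Hsf1 and Hsf2. Each gene was read through 1 probe set, the brightest of its probe sets by mean signal over the 4 arrays, and the 78 genes had 156 probe sets in all. Hsp90ab1 and Hsf1 were not analysed here. The members fall into 10 genes of the cytosolic HSP70 and HSP110 families, 1 of cytosolic HSP90, 6 small heat shock proteins, 9 chaperonin genes, 8 BAG and other co-chaperone genes, 1 heat shock factor, 9 members of the endoplasmic reticulum (ER), 9 of the mitochondria and 25 other J-domain proteins.

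The cells were bone marrow dendritic cells (DC) of c57bl/6 mice, antigen-presenting cells obtained from bone marrow. The tested cells were nkt modulated DC (called NKT-modulated DC here), measured on 2 arrays, and they were set against immature DC, also on 2 arrays. NKT cells are T cells that recognise lipids presented by CD1d. The labels name no allele, stimulus, dose, culture time or ratio of NKT cells to DC, and per the design text RNA was extracted from CD11c cells, that is, cells bearing this DC surface marker. The deposited values are Affymetrix signals, linear intensities with 1 value per probe set and array. The design text speaks of triplicates and of repeats, which does not match 2 arrays per group, and no label tells whether those arrays came from separate cultures. A p-value here reflects how far these arrays scatter, and that scatter may be technical.

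Chaperones bind proteins that are not folded and keep them from aggregating. HSP70 proteins do so in cycles of ATP hydrolysis: J-domain proteins bring the client and start hydrolysis, and nucleotide exchange factors such as HSP110 and BAG proteins reset the cycle. HSP90 acts later on signalling proteins, the ring-shaped chaperonins enclose a client, and the ER and mitochondria each hold their own HSP70 with its partners. In a stressed cell heat shock factor switches on the inducible cytosolic genes, while the unfolded protein response acts on those of the ER.

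Of the 78 members, 8 rose in NKT-modulated DC relative to immature DC and 1 fell, at an adjusted p under 0.05 in limma, with p-values adjusted over all probe sets. The same call held for 5.99% of all genes in the upward direction and for 6.9% in the downward direction, against 10.3% and 1.28% of the members. Counting both directions, 11.5% of the members were called, beside 12.9% of all genes, so the members were called about as often as any gene. What stands out in the set is the size of 2 changes: Hspa1a and Hspa1b, the stress-inducible cytosolic HSP70 genes, rose 28.4-fold and 11.4-fold in NKT-modulated DC over immature DC. Only 20 of the 12393 genes rose by more than Hspa1a, and 45 by more than Hspa1b. The other 6 genes that rose were Hsph1, Dnaja4, Cct6b, Dnajc11, Dnajb9 and Dnaja2, with log2 changes between 0.40 and 1.30, and the 1 that fell was Dnajc15.

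Most of the set moved little. Among the 69 members that were not called, 64 had an absolute log2 change under 0.5. The median log2 change was 0.09 over the members, 0.079 without Hspa1a and Hspa1b, and -0.042 over all genes. By sign, 53 members had a positive and 25 a negative change. After normalization both NKT-modulated arrays lay above both immature arrays for 36 members (46.2%, against 23.8% of all genes) and below them for 18 members (23.1%, against 32.5% of all genes). Rises of at least 2-fold that passed the test were found for 4 members (5.13%, against 3.15% of all genes), and falls of that size for 0 members, against 2.3% of all genes.

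**Figure D1:**
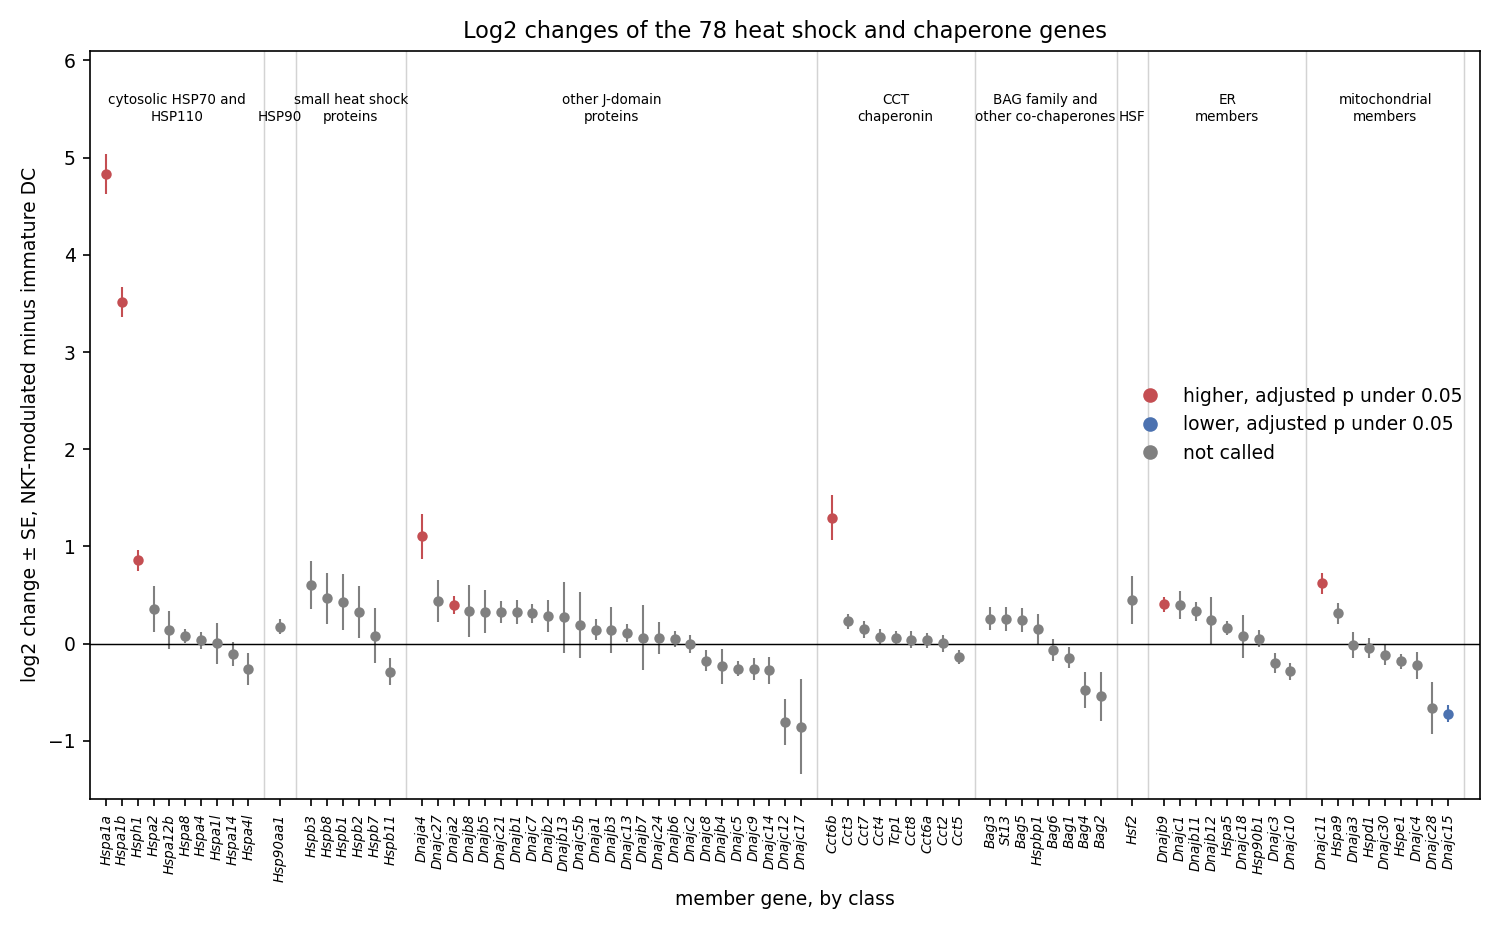
Log2 change (vertical axis, ± SE, NKT-modulated minus immature DC, 2 arrays each) of the 78 member genes, grouped by class along the horizontal axis; red points rose and blue points fell at an adjusted p under 0.05, grey points were not called. Hspa1a at 4.83 and Hspa1b at 3.51 lie far above every other member, the next being Cct6b at 1.30 and Dnaja4 at 1.10.

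Within the cytosolic HSP70 and HSP110 families, 3 of 10 members rose and 0 fell, and the median log2 change was 0.11. The signal of Hspa1a was 3871 and 2465 on the NKT-modulated arrays, against 85.1 and 110.3 on the immature arrays. Hspa1b gave 5055 and 3421 on the NKT-modulated arrays, against 357 and 388 on the immature arrays. The groups were far apart for both genes, although NKT-modulated replicate 1 was clearly brighter than replicate 2. On the log2(signal + 16) scale the change was 4.83 ± 0.21 (SE; 95% interval 4.33 to 5.33; adjusted p = 0.000123) for Hspa1a and 3.51 ± 0.16 (interval 3.13 to 3.90; adjusted p = 0.000143) for Hspa1b. These 2 genes are near-identical copies whose transcripts can hybridise to the same probes, so the share of each in the rise is uncertain. All 3 probe sets annotated to Hspa1b rose, the other 2 by 3.81 ± 0.19 and 3.72 ± 0.16 on the log2 scale.

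The likeness of the pair extends to the start of the genes. The 250 bases upstream of each start, taken from the RefSeq promoter table for GRCm38.p6, are printed here because they belong to the members with the largest changes, and that of Hsph1, the next HSP70-family gene to rise, is set beside them. Capitals mark a heat shock element of 2 units, searched on both strands as GAANNTTC or TTCNNGAA. The windows lie at chr17:34972157-34972406 (Hspa1a), chr17:34959239-34959488 (Hspa1b) and chr5:149636337-149636586 (Hsph1), all on the minus strand and written 5′ to 3′.
Hspa1a: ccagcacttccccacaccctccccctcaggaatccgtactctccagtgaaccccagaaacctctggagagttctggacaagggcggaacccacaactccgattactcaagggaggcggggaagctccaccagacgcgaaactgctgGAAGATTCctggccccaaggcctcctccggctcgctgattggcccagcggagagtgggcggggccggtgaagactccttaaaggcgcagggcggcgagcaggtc
Hspa1b: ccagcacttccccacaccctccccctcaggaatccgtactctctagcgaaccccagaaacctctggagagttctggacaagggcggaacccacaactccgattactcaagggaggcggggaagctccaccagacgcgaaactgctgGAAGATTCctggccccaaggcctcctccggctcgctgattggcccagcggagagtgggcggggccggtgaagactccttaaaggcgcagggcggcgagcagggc
Hsph1: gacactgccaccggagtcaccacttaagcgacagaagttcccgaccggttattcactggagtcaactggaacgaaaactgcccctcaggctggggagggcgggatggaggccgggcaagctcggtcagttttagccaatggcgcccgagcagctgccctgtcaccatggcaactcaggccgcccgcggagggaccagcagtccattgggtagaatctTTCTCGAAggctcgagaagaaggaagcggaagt

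The Hspa1a and Hspa1b windows were identical at 247 of 250 bases (98.8%), and in both the match lay 104 bases before the start. In Hsph1 the match lies 33 bases before the start used here and 54 bases before another annotated start of the gene. Across all genes with RefSeq windows, 14.5% hold this element in the 250 bases before any annotated start. Among the 64 members with a window it occurred in 15 (23.4%). It occurred in 4 of the 8 called members with a window, Hspa1a, Hspa1b, Hsph1 and Dnaja4, and in 11 of the 56 that were not called. A match is a description of the letters and not of a bound site, and only exact matches were counted.

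Hsph1, an HSP110 protein that acts as a nucleotide exchange factor for HSP70, had signals of 2850 and 2650 on the NKT-modulated arrays, against 1348 and 1842 on the immature arrays. Its log2 change was 0.86 ± 0.11 (adjusted p = 0.00592), and its other probe set also rose, by 0.97 ± 0.13. The adjusted p became 0.0533 without NKT-modulated replicate 1, and 0.0634 where the fit modelled no intensity trend. The constitutive HSP70 of the cytosol changed far less. Hspa8 had 17466 and 16238 on the NKT-modulated arrays, against 15332 and 14293 on the immature arrays. Its log2 change was 0.080 (interval -0.095 to 0.25) at the brightest probe set. The other probe sets of Hspa8 stood at 0.081 to 0.55, with intervals reaching up to 1.10, and none was called. All these intervals bound its rise well under that of Hspa1a. Of the HSP110-related Hspa4 and of Hspa14, a ribosome-associated HSP70, neither was called, with log2 changes of 0.033 and -0.11. Hspa1l, named after its values were seen because its start lies 546 bases from that of Hspa1a, had signals of 2.97 and 4.69 on the NKT-modulated arrays against 2.01 and 5.39 on the immature arrays, all below the pseudocount of 16.

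**Figure D2:**
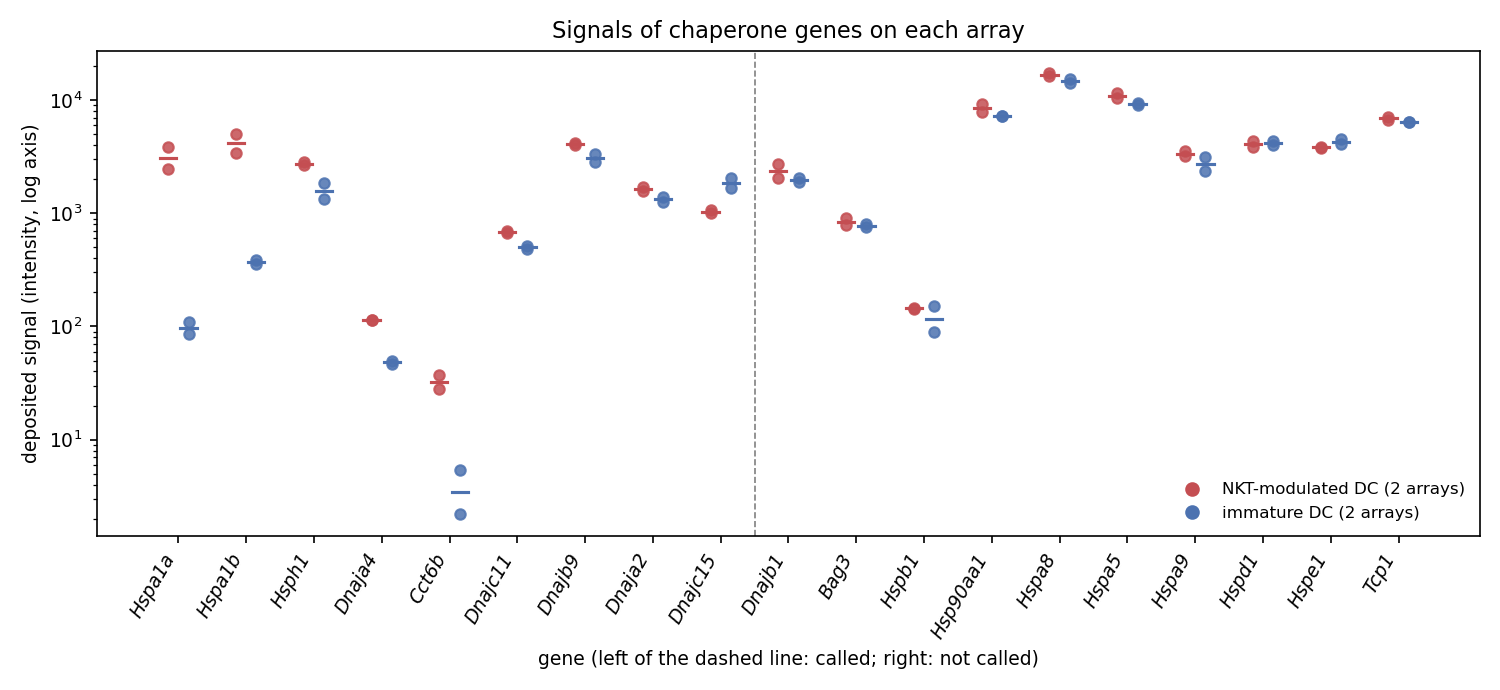
Deposited signal (intensity, log axis) of 19 member genes on each array, red for the 2 NKT-modulated arrays and blue for the 2 immature arrays, with a bar at the geometric mean of each pair; the dashed line divides called from uncalled genes. Hspa1a and Hspa1b show the widest gaps between the groups, while Hspa8, Hspa5, Hspd1 and Tcp1 lie nearly level in both groups. Signals of different probe sets cannot be set against each other.

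The T and NKT cell marker genes moved in the same direction as the HSP70 pair. Of 21 measured markers 13 rose and 0 fell, and their summed signal was 19232 and 13940 on the NKT-modulated arrays, against 1493 and 1587 on the immature arrays. Il4 gave 7559 and 5281 of that sum on the NKT-modulated arrays, and Ifng gave 3124 and 1969. The T cell receptor component Cd3g gave 1401 and 1046 there. The 8 markers that were not called had log2 changes of 0.13 (Zbtb16) to 0.54. No marker was at 0 on any array, and 7 and 9 of the 21 were under a signal of 16 on the immature arrays. The 2 NKT-modulated arrays also differed from each other. The ratio of replicate 1 to replicate 2 was 1.57 for Hspa1a, 1.48 for Hspa1b and 1.38 for the marker sum. Over the 13 markers that rose its median was 1.43 (1.02 to 1.97), but those 13 were picked through their rise on these same arrays. The uncalled markers went both ways between replicates 1 and 2, as with Zbtb16 (125 and 72.7) and Cd2 (18.2 and 34.9). Over all genes with signals of at least 100 on both arrays the median of this ratio was 1.03, and it was 1.08 for Hsph1. For other called members it was 1.05 (Dnajc15), 1.04 (Dnajb9), 1.03 (Dnajc11), 0.99 (Dnaja4) and 0.92 (Dnaja2). The part of NKT cell RNA in the HSP70 rise was not tested. In such bulk samples more cells of a type and more RNA per cell cannot be told apart.

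Of the DC markers all 15 were measured, and none was at 0. Itgax, which encodes CD11c, gave 5253 and 4643 on the NKT-modulated arrays and 5442 and 5537 on the immature arrays. In that list 4 genes rose (Cd40, Batf3, Irf4, Cd86) and 1 fell (Csf2ra), and the summed signal was 87425 and 79457 on the NKT-modulated arrays, against 70875 and 69964 on the immature arrays. Of 4 B cell markers 1 rose, with sums of 352 and 319 on the NKT-modulated arrays against 113 and 107 on the immature arrays. The marker that rose, Cd79b, gave 270 and 210 of these sums on the NKT-modulated arrays and 35.3 and 32.0 on the immature arrays. The uncalled B cell markers had log2 changes of -0.009 to 0.63. Of 8 neutrophil markers 3 rose, with sums of 2059 and 1844 on the NKT-modulated arrays against 944 and 1135 on the immature arrays. Median log2 signals were 7.24 and 7.18 on the NKT-modulated arrays and 7.34 and 7.44 on the immature arrays. The Gapdh 3′ to 5′ signal ratio, a measure of RNA integrity and amplification, was 1.87 and 1.98 on the NKT-modulated arrays and 1.76 and 1.44 on the immature arrays. The same ratio for beta-actin was 1.09 and 1.18 on the NKT-modulated arrays and 1.18 and 1.16 on the immature arrays. The part of RNA integrity and amplification in the results was not tested.

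Small heat shock proteins hold unfolded clients without ATP. Together, HSP90 and the genes classed as small heat shock proteins gave 0 calls in 7 members by limma (1 at an unadjusted p under 0.05). Hsp90aa1, the stress-inducible cytosolic HSP90, had signals of 9173 and 7876 on the NKT-modulated arrays, against 7303 and 7312 on the immature arrays. Both NKT-modulated arrays were the higher ones, but the log2 change of 0.17 ± 0.078 did not pass (adjusted p = 0.237). The other probe sets of Hsp90aa1 had larger log2 changes, 0.38 (adjusted p = 0.0819 by limma) and 0.22, and were not called either. Hspb1 (HSP27 in human), a small heat shock protein known as a stress-induced gene, had 144 and 147 on the NKT-modulated arrays, against 152 and 89.0 on the immature arrays. Its deposited signals overlapped between the groups, while after normalization both NKT-modulated arrays lay above both immature arrays. The log2 change of 0.43 ± 0.29 was not called (adjusted p = 0.432), and the 2 immature arrays of Hspb1 lay far apart. The 6 genes classed as small heat shock proteins had a median log2 change of 0.38, with Hspb8 at 0.47 and Hspb11, the only negative one, at -0.29. They were classed by their Hspb symbol, which does not show that each of them, such as Hspb11, acts as a chaperone. Hspb8 was dim on every array, at 62.9 and 61.5 on the NKT-modulated arrays against 37.3 and 47.9 on the immature arrays.

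J-domain proteins are the most numerous members. Counting those of the ER and mitochondria, they are 38 genes, of which 4 rose and 1 fell. Among the 25 of the cytosol, nucleus and other places, 2 rose, 0 fell and the median log2 change was 0.14. Dnaja4, a cytosolic HSP70 partner, had signals of 113 and 114 on the NKT-modulated arrays, against 46.6 and 49.9 on the immature arrays. It was higher on both NKT-modulated arrays by nearly the same amount (log2 change 1.10 ± 0.23, adjusted p = 0.0348). Its 2 dimmer probe sets, at 0.56 and 0.35, did not pass, and the gene missed the threshold when any 1 array was left out, with adjusted p of 0.11 to 0.15.

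Dnaja2, a cytosolic J-domain protein of the same type, had signals of 1575 and 1710 on the NKT-modulated arrays, against 1257 and 1400 on the immature arrays. Its log2 change of 0.40 ± 0.093 lay just inside the threshold (adjusted p = 0.0459) and passed under 5 of 14 alternative settings. Dnajb1, the main HSP40 of the heat shock response, had 2703 and 2073 on the NKT-modulated arrays, against 1890 and 2034 on the immature arrays. By its brightest probe set it was not called (0.32 ± 0.12, adjusted p = 0.159), whereas its dimmer probe set, with 502 and 465 on the NKT-modulated arrays and 329 and 287 on the immature arrays, rose by 0.82 ± 0.16 (adjusted p = 0.0289). The ratio of NKT-modulated replicate 1 to replicate 2 was 1.30 for the brightest one. Dnaja1 was split in the same way, with 0.14 at the brightest probe set (not called) and 0.37 at the other (adjusted p = 0.0485). Dnajb6, which keeps aggregation-prone proteins soluble, and the splicing-associated Dnajc8 had log2 changes of 0.046 and -0.17, and neither was called.

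**Figure D3:**
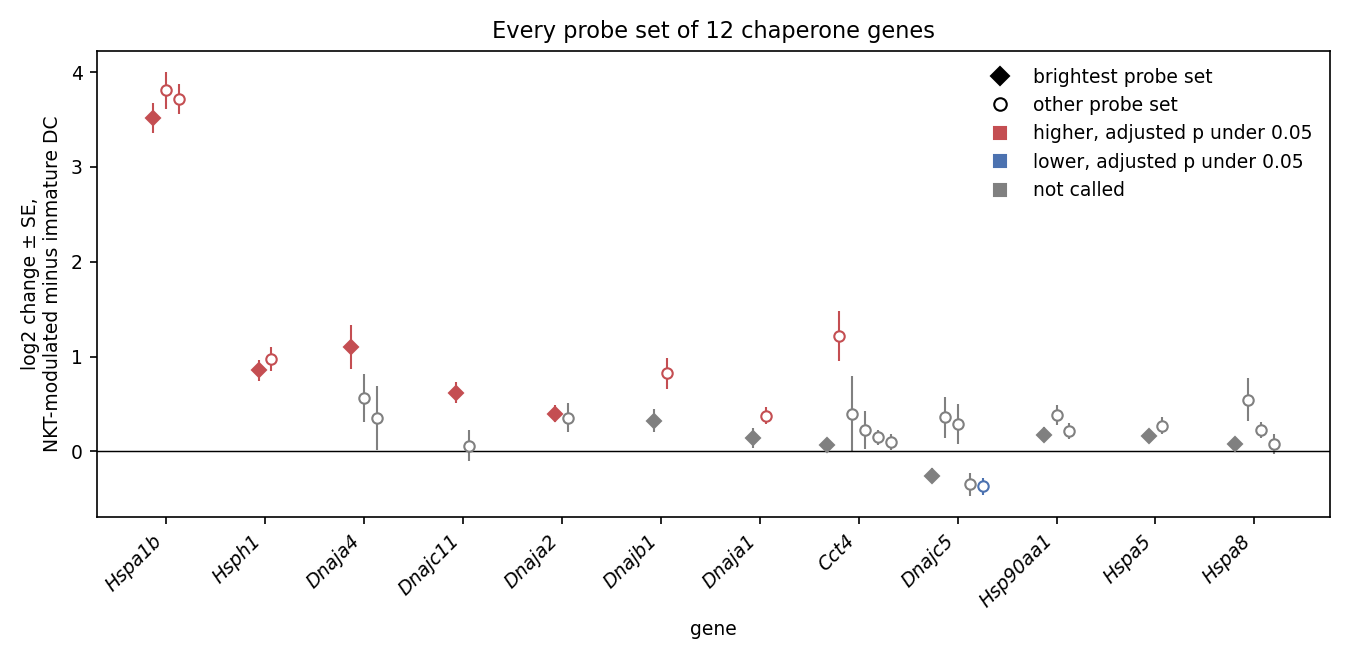
Log2 change (± SE, NKT-modulated minus immature DC) of every probe set of 12 member genes, the brightest as a diamond and the others as open circles; red rose, blue fell, grey was not called. The 3 probe sets of Hspa1b lie together between 3.51 and 3.81, whereas those of Cct4 spread over 0.070 to 1.22, and only 1 of its dimmer ones was called.

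Probe sets of a gene often differed in whether they passed. Of the 44 members with several probe sets, 30 had the same sign of change in all of them. Of the 5 called members with several, Hspa1b and Hsph1 had another one called, and none had one called in the opposite direction. Another 4 genes had a dimmer probe set called although the brightest was not: Dnaja1, Dnajb1, Cct4 and Dnajc5, the last being the cysteine string protein of secretory vesicles, with a log2 change of -0.37 at that probe set and -0.26 at the brightest. Cct4 and Dnajc5 are named for this after their probe sets were seen. The remaining probe sets of Dnajc5 went both ways, at 0.36, 0.29 and -0.35, and none of them was called. Of the 78 members, 14 never reached a signal of 100 and 3 never reached 16, and for these a fold change on the log2(signal + 16) scale is understated.

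The cytosolic chaperonin, the ring that folds actin and tubulin, showed small changes as a group. Its 8 ring subunits had log2 changes of -0.14 to 0.23, with a median of 0.047, and 0 of the 8 were called by limma (1 at an unadjusted p under 0.05). Tcp1, the subunit that gave the complex its name, had signals of 7062 and 6729 on the NKT-modulated arrays, against 6450 and 6425 on the immature arrays. That is a log2 change of 0.056, with an interval of -0.13 to 0.24. Cct3, Cct4 and Cct6a stood at 0.23, 0.070 and 0.034, with adjusted p of 0.125 or more. The 1 called gene of the class was Cct6b, a testis form of the sixth subunit, at 37.6 and 28.1 on the NKT-modulated arrays against 5.37 and 2.21 on the immature arrays. Its log2 change was 1.30 ± 0.23 (adjusted p = 0.0205). All 4 of these signals are dim, the change was 2.86 with a pseudocount of 1 and 0.51 with 64, and it did not pass when any 1 array was left out.

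The co-chaperones outside the J-domain family gave 0 calls in 8 members by limma (1 at an unadjusted p under 0.05), with a median log2 change of 0.041. Bag3, a BAG protein induced by stress that directs HSP70 clients to autophagy, had signals of 786 and 907 on the NKT-modulated arrays, against 761 and 798 on the immature arrays. St13, the HSP70-interacting protein Hip, had 1386 and 1166 on the NKT-modulated arrays, against 1009 and 1324 on the immature arrays. The deposited signals of the groups overlapped for both genes, whereas after normalization both NKT-modulated arrays lay above both immature arrays, and each gene had a log2 change of 0.25 that was not called. Bag1, a nucleotide exchange factor, stood at -0.14. The heat shock factor among the members, Hsf2, was near the pseudocount, with 18.9 and 26.6 on the NKT-modulated arrays against 12.1 and 12.4 on the immature arrays, and its log2 change of 0.45 was not called (adjusted p = 0.336).

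Of the 9 ER members 1 rose, 0 fell, and the median log2 change was 0.16. Dnajb9, the J-domain protein ERdj4 that serves ER-associated degradation, had signals of 4145 and 3989 on the NKT-modulated arrays, against 2860 and 3326 on the immature arrays. Both NKT-modulated arrays were higher, with a log2 change of 0.41 ± 0.076 (adjusted p = 0.0239), and the adjusted p was 0.0557 to 0.125 when any 1 array was left out. Hspa5, the ER HSP70 known as BiP, had 11535 and 10400 on the NKT-modulated arrays, against 9379 and 9055 on the immature arrays. It too was higher on both arrays, by 0.16 on the log2 scale (interval -0.013 to 0.34), without passing the test. The other probe set of Hspa5 stood at 0.27 (interval 0.056 to 0.49) and was not called either. Hsp90b1, the HSP90 of the ER (GRP94), stood at 0.051 with 11555 and 10135 on the NKT-modulated arrays against 9564 and 10246 on the immature arrays. Its dimmer probe set stood at 0.24, also not called. Dnajb11, a cofactor of BiP, had a log2 change of 0.33 with an adjusted p of 0.0935.

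The 250 bases before the start of Hspa5, on chromosome 2 at chr2:34771840-34772089 (plus strand, GRCm38.p6), are printed for contrast with the HSP70 pair of the cytosol, since this HSP70 gene carries the other kind of stress element. Capitals mark the ER stress element, searched on both strands as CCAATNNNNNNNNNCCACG or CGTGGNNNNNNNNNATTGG.
Hspa5: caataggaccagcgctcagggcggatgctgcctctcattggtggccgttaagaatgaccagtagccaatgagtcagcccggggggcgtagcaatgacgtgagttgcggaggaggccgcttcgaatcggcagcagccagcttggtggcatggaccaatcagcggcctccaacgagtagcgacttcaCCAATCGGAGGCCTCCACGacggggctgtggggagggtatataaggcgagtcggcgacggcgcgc

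The match lies 65 bases before the start. Of all genes with windows, 0.13% hold the element, and among the 64 members with a window it was found in 3: Hspa5, Hsp90b1 and Dnajc3. None of these 3 genes was called. Dnajc3, an inhibitor of the ER stress kinase PERK, is named here for its match. Its log2 change was -0.20 at the brightest probe set, while its other probe sets ranged from -0.13 to 0.37 and were not called. The window of Dnajb9 held no match, which says only that these letters are not in it.

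The mitochondrial members held the only fall. Of 9 genes 1 rose and 1 fell, and the median log2 change was -0.11. Dnajc15, an inner-membrane J-domain protein also called MCJ that restrains respiratory complex I in mice, had signals of 1065 and 1011 on the NKT-modulated arrays, against 1666 and 2040 on the immature arrays. Both NKT-modulated arrays were lower, with a log2 change of -0.72 ± 0.090 (adjusted p = 0.00541), and the call held when any 1 array was left out. The adjusted p of Dnajc15 was 0.0634 where the fit modelled no intensity trend. Dnajc11, a J-domain protein associated with the mitochondrial cristae, had 696 and 676 on the NKT-modulated arrays, against 486 and 518 on the immature arrays. It rose by 0.62 ± 0.11 (adjusted p = 0.0188) at this probe set. The other probe set of Dnajc11 stood at 0.059, and the adjusted p was 0.0552 to 0.106 when any 1 array was left out.

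None of the matrix chaperones proper was called. Hspa9, the mitochondrial HSP70 (mortalin), had signals of 3570 and 3198 on the NKT-modulated arrays, against 2388 and 3156 on the immature arrays. The dimmer immature array set most of the difference (log2 change 0.31, interval 0.053 to 0.57, adjusted p = 0.131 by limma). Hspd1, the chaperonin HSP60, had 3862 and 4345 on the NKT-modulated arrays, against 4044 and 4364 on the immature arrays, and a log2 change of -0.046. Hspe1, its HSP10 partner, had 3869 and 3780 on the NKT-modulated arrays, against 4136 and 4494 on the immature arrays, and a log2 change of -0.18 (adjusted p = 0.196). Hspd1 and Hspe1 are neighbours that are read away from each other, with 215 bases between their starts at chr1:55087933-55088147 (plus strand, GRCm38.p6, reading towards Hspe1). That stretch is printed because it holds a heat shock element of 3 units, searched on both strands as GAANNTTCNNGAA or TTCNNGAANNTTC, in genes that were not called. Capitals mark a pair of overlapping matches.
Hspe1 and Hspd1: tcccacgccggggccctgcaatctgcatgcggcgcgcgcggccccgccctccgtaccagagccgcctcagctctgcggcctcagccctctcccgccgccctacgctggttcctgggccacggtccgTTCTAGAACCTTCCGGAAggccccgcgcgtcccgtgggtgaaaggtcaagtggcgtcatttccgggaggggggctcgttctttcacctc

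The 3-unit element was found in 0.514% of all genes with windows and in 3 of the 64 members with a window, which are Hspd1, Hspe1 and Dnajb6. Each such match contains matches to the 2-unit element. None of the 3 genes was called, and none of the 8 called members with a window held an exact match to the 3-unit element. Units with a mismatch were not searched, so this count does not show that a called member lacks an element of several units.

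Genes outside the set that work with it were counted in 4 lists. Of their 69 measured genes 3 rose and 0 fell, beside 5.99% of all genes called higher and 6.9% called lower. Among 21 HSP90 and HSP70 co-chaperones and HSF1 targets, 1 rose and the median log2 change was 0.027. That gene was Stip1, the adaptor HOP that links HSP70 to HSP90, with 948 and 831 on the NKT-modulated arrays against 659 on each immature array (0.59 ± 0.12, adjusted p = 0.0309). Stip1 did not pass when any 1 array was left out, with adjusted p of 0.054 to 0.16. Of 24 genes of ER folding and the unfolded protein response, 2 rose, and the median was 0.12. Ppp1r15a (GADD34), a phosphatase subunit that restores translation after stress, had 1120 and 1025 on the NKT-modulated arrays, against 571 and 588 on the immature arrays (1.02 ± 0.11, adjusted p = 0.00313).

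Atf4, a transcription factor of the integrated stress response, had 4078 and 3616 on the NKT-modulated arrays, against 2582 and 2892 on the immature arrays (0.50 ± 0.081, adjusted p = 0.0139). The mean over all probe sets of Atf4 gave a log2 change of 0.16 with an adjusted p of 0.522. The 9 prefoldin and chaperonin partners had a median of -0.11 and the 15 mitochondrial chaperones and proteases one of 0.042, and by limma 0 genes of either list were called (3 and 4 at an unadjusted p under 0.05). At an unadjusted p under 0.05, 29.5% of the 78 members passed, against 28.2% of all genes.

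**Figure D4:**
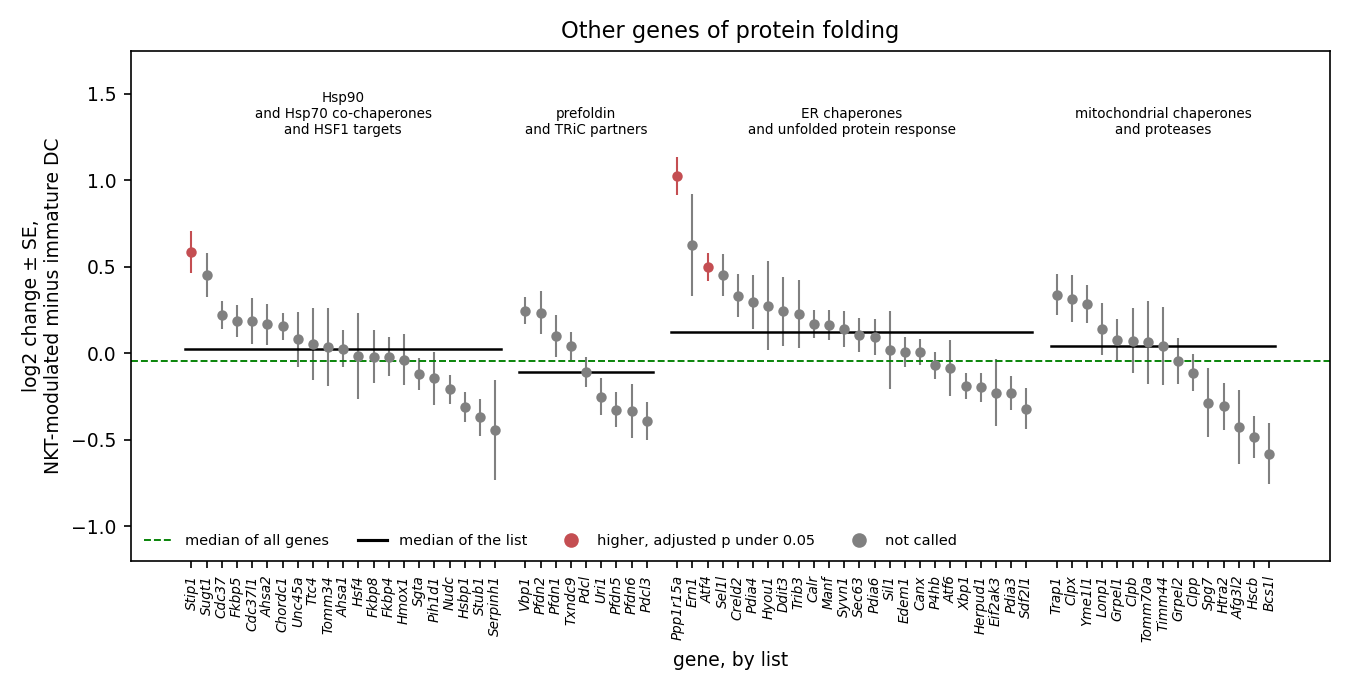
Log2 change (± SE, NKT-modulated minus immature DC) of 69 other genes of protein folding in 4 lists; red points rose at an adjusted p under 0.05 and grey points were not called, the black bars are the list medians and the dashed green line is the median of all genes. Ppp1r15a at 1.02, Stip1 at 0.59 and Atf4 at 0.50 are the called genes, and the list medians lie between -0.11 and 0.12.

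The calls were not equally stable from gene to gene. Hspa1a and Hspa1b were called under all 14 alternative settings, with log2 changes of 4.32 to 5.10 and of 3.24 to 3.72. Dnajc15 was called under 13 and Hsph1 under 12 of the 14. With any 1 array left out, 2 or 3 members were called higher in place of 8, and Dnaja4, Cct6b, Dnajb9, Dnajc11 and Dnaja2 were not called in any of those 4 fits. Without further normalization 5 members were called higher. That setting also moved the share of called genes that were higher, over all genes, to 35.2%, against 46.5% after quantile normalization.

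**Figure D5:**
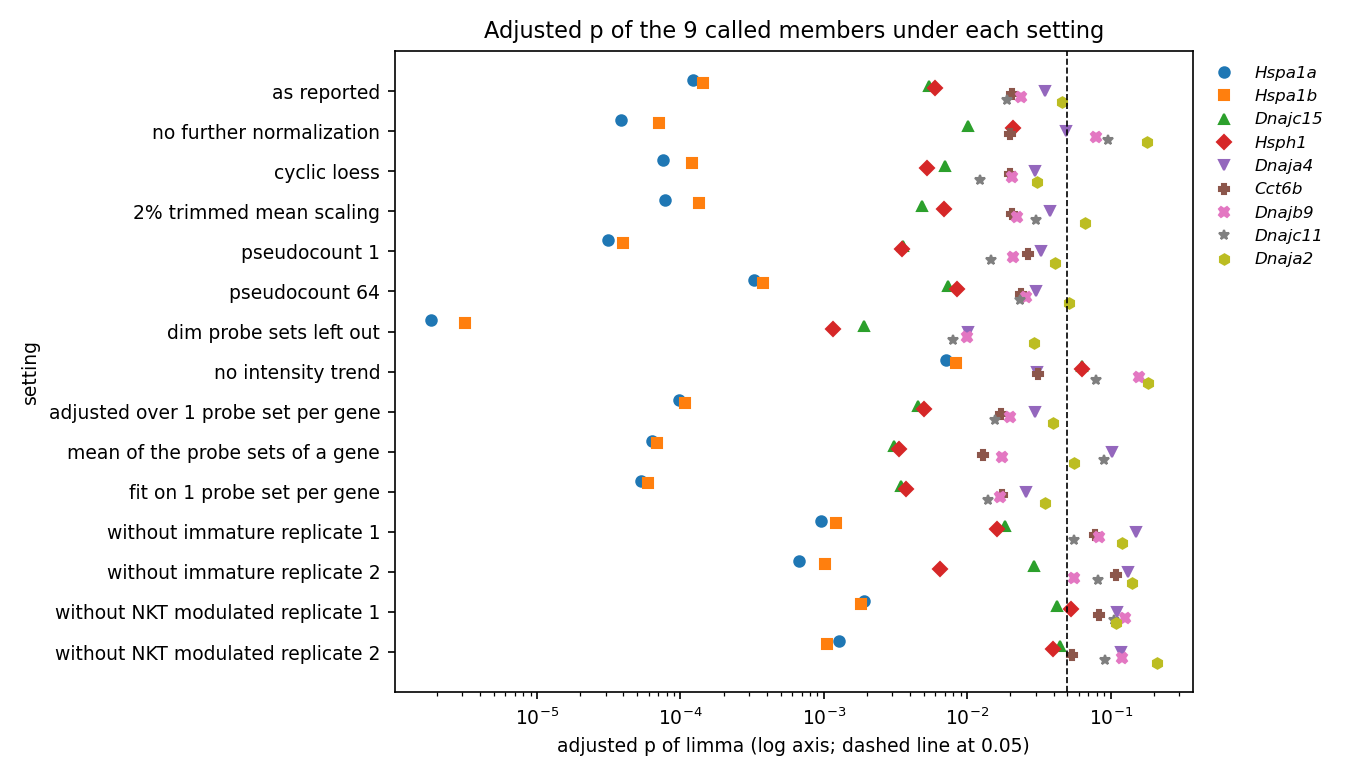
Adjusted p of limma (log axis, dashed line at 0.05) of the 9 called members, by setting; each symbol is a gene. Hspa1a and Hspa1b stay left of the line in every setting, at 0.00838 or below, while Dnaja2, Dnajc11, Dnajb9, Cct6b and Dnaja4 cross it when an array is left out.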

How the data were processed

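RNA of 2 NKT-modulated and 2 immature DC samples was measured on Affymetrix arrays. The authors deposited linear intensities, 1 signal per probe set, and used GCOS, the Affymetrix array software, per the submitters' processing notes. The software version was not given in the sources used here, nor were the summary method and the scaling. According to the design text a one-cycle labelling kit was used, and according to the labels a Two-Cycle assay, so the amplification is not settled. The design text also names a larger array of the family than the 22690 rows of the table hold, so genes without a probe set here are not read as absent.

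Of 22690 rows, 64 control probe sets were left out and 22626 were tested. Through the platform annotation 20380 had 1 gene symbol, 691 several and 1555 none; for 20351 the symbol was looked up by gene ID in RefSeq (GRCm38.p6). The quartiles of the arrays differed by up to 0.27 on the log2 scale. Values of log2(signal + 16) were quantile normalized between arrays. The groups were compared by limma 3.58.1 under R 4.3.3, using lmFit and a two-sided eBayes test that models an intensity trend, and p-values were adjusted by Benjamini-Hochberg over all 22626 probe sets. The fit had 2 residual and 4.13 prior degrees of freedom, so the number of arrays limits the precision. Pearson correlations of log2 signals were 0.985 and 0.987 within groups and 0.960 to 0.965 between them, and no arrays were identical. Only the limma fit was run on simulated data, drawn from its own variance model. Normalization and the choice of probe sets were not tested in this way, so that run does not show how the steps do on these data. Promoter windows were matched by symbol, for 64 of the 78 members.

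The members and lists were chosen with earlier results of these data known. Named are every called member, up to 3 uncalled members per class with the highest mean signal, further members picked for their known roles, and called genes of the other lists. Where a gene falls outside this rule, the text says so. Alternatives changed the normalization, pseudocount, filter on dim probe sets, intensity trend, adjustment, choice of probe set and the arrays. A fit on 1 probe set per gene was added after seeing the data.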

Additional observations from a re-analysis of the deposited data

How the results depend on the processing

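The number of members called higher, 8 as reported, was 5 without further normalization, 4 without the intensity trend and 2 to 3 when an array was left out. The number called lower, 1 as reported, was 2 with dim probe sets left out, 0 without the trend and 1 to 2 when an array was left out. Over all genes 742 were called higher and 855 lower. These counts were 384 and 272 without the trend, and with an array left out 397 to 510 and 305 to 406. Without the trend Dnajc15 and Hsph1 each had an adjusted p of 0.0634. Fewer arrays leave fewer degrees of freedom; other causes were not tested. Dnajc12 was called with dim probe sets left out and without NKT-modulated replicate 1, Cct3 with dim probe sets left out (0.23, adjusted p = 0.0469), and Dnajb1 as the mean of its probe sets (0.57, adjusted p = 0.0263). Ppp1r15a was called under all 14 alternatives, Atf4 under 9 and Stip1 under 8. The sign of the log2 change turned in uncalled genes near 0. With an array left out, Cct6a ranged between -0.015 and 0.088, Hsp90b1 between -0.014 and 0.121, Dnajb6 between -0.008 and 0.098, Hspa4 between -0.043 and 0.107, Hspa14 between -0.244 and 0.032, and Hspd1 between -0.159 and 0.063. As means of probe sets Hspa14 had 0.029 and Hspa4 -0.209, and Hspd1 had 0.000 with cyclic loess and 0.026 with trimmed mean scaling. With dim probe sets left out, Cct6b, Hsf2 and Hspb8 had no value. No paired analysis was possible because the labels share no replicate numbers between the groups, and the numbers used here follow accession order only.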

Other observations

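Dnajc12, a J-domain protein that in human binds the aromatic amino acid hydroxylases, is named here after its values were seen. Its signal was 555 and 328 on the NKT-modulated arrays, against 733 and 1007 on the immature arrays, and both NKT-modulated arrays were lower. The log2 change of -0.81 ± 0.24 had an adjusted p of 0.0901 in limma. It was -0.81 with an adjusted p of 0.0300 when dim probe sets were left out, and -1.15 with an adjusted p of 0.0329 without NKT-modulated replicate 1.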
